A study of Mus musculus with 4 samples.

Results

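Expression of 10 genes of the Hippo pathway and of its transcriptional output was examined in primary mouse hepatocytes. The genes were Ankrd1, Ccn1, Ccn2, F3, Crim1, Axl, Amotl2, Lats2, Ajuba and Tead1. They were chosen by gene symbol, and the group was proposed from the measured differences between these same arrays. Their differences are therefore given as a description, with no test, and they support nothing beyond themselves. All 10 had at least 1 probe set with a single gene symbol, among 22180 named genes in all. They were read by 11 probe sets, because Ccn2 had 2.

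Hepatocytes of male mice aged 2 months were used, either wild type (WT) or with a Chrebp knockout (KO; the gene is Mlxipl). They spent 16 h without serum in medium with 25 mM fructose or with none (control). Each of the 4 groups was measured on 1 array, so no difference here has a replicate check and no order of levels can be set against a spread between replicates. The labels give neither the part of the gene that was deleted nor how many mice contributed, and they name the RNA source both as hepatocytes and, in the extraction step, as liver.

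The Hippo pathway is a kinase cascade in which MST kinases activate LATS kinases, which phosphorylate YAP and TAZ and keep them out of the nucleus. Unphosphorylated YAP and TAZ enter the nucleus, bind TEAD transcription factors and raise the transcription of genes such as Ankrd1, Ccn1 and Ccn2. In liver the pathway is known for its control of organ size, and YAP activity is known to be affected by cell attachment, cell density and the actin cytoskeleton. Phosphorylation and localisation are not measured by an expression array.

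Values are log2 levels after robust multi-array average (RMA) normalization, so a difference of 1 is 2-fold. A background level of 4.76 was set at the 95th percentile of the mean level of 1105 olfactory receptor genes, taken as silent in these cells. All 10 genes lay above it on all 4 arrays, as did all 11 measured hepatocyte markers, among them Alb and Ttr. Between arrays, 10368 to 10447 genes lay above it. Mlxipl had log2 levels of 8.08 on WT control, 8.43 on WT fructose, 7.42 on KO control and 7.37 on KO fructose, a residual signal that checks the genotype only in part.

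**Figure D1:**
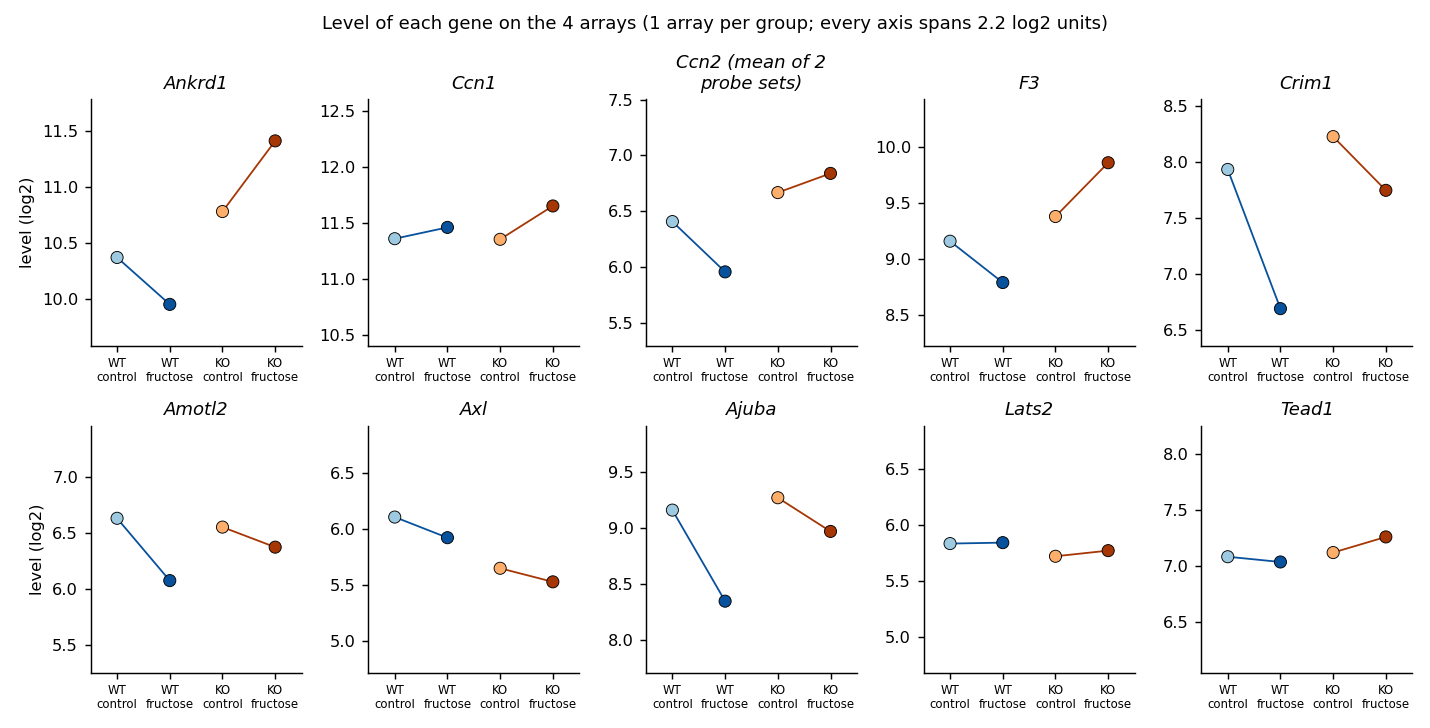
Log2 level (vertical axis) of each of the 10 genes on the array of each genotype and medium (horizontal axis); each point is 1 array, and lines join the 2 arrays of a genotype. Ankrd1, Ccn2 and F3 go down with fructose in WT and up in KO, Crim1 and Ajuba go down in both, and Lats2 and Tead1 stay within 0.22 log2 units over the 4 arrays.

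Ankrd1 encodes a nuclear and sarcomeric ankyrin repeat protein and is one of the most used readouts of YAP activity. Its log2 level was 10.37 on WT control, 9.95 on WT fructose, 10.78 on KO control and 11.41 on KO fructose. Both KO arrays were above both WT arrays, and the WT fructose array was the lowest. Fructose was accompanied by a 1.34-fold lower level in WT and a 1.55-fold higher level in KO. The KO array was 1.33-fold above WT in control medium and 2.75-fold above it in fructose medium. The promoter window of Ankrd1, from 250 bases before to 50 bases after the annotated start (GRCm38.p6, chr19:36119795-36120094, minus strand, from RefSeq), is shown because it holds 2 matches to the TEAD motif GGAATG, which are in capitals.
Ankrd1: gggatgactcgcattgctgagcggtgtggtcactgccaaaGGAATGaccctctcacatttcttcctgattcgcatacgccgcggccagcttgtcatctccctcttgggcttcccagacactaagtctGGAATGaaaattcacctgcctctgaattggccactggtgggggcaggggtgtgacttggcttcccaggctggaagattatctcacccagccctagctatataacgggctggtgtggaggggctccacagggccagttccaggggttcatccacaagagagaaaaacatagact

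Ccn1 and Ccn2 (formerly Cyr61 and Ctgf) encode secreted matricellular proteins of the CCN family and are textbook targets of YAP and TEAD. Ccn1 had log2 levels of 11.36 on WT control, 11.46 on WT fructose, 11.36 on KO control and 11.66 on KO fructose, a range of 0.30. Its largest difference was 1.23-fold, between the KO arrays. Its window (chr3:145649936-145650235, minus strand) is shown beside that of Ankrd1 because it also holds the motif, in capitals, here once and on the other strand as CATTCC, while its level differed little.
Ccn1: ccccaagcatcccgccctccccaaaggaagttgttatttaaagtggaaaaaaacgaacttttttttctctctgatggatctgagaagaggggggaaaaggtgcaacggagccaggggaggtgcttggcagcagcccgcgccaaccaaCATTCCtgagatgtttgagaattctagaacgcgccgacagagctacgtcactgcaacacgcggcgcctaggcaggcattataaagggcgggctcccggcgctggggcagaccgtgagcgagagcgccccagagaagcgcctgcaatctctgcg

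Ccn2 was read by 2 probe sets that did not behave alike. Averaged, they gave 6.41 on WT control, 5.96 on WT fructose, 6.67 on KO control and 6.84 on KO fructose. The brighter probe set gave 8.65, 7.87, 8.94 and 9.36 on the same arrays, whereas the dimmer one gave 4.17, 4.05, 4.39 and 4.32 and was below the background level on all 4. The array order was the same for the mean and for the brighter probe set, with KO fructose highest and WT fructose lowest. By the mean, fructose was accompanied by a 1.37-fold lower level in WT and a 1.13-fold higher one in KO. By the brighter probe set alone these were 1.72-fold lower and 1.33-fold higher. The KO level in fructose medium was 1.84-fold above WT by the mean and 2.81-fold by the brighter probe set.

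F3 encodes tissue factor, the membrane receptor that starts coagulation, and is a known YAP target in other cells. Its log2 level was 9.16 on WT control, 8.79 on WT fructose, 9.38 on KO control and 9.86 on KO fructose. Here too both KO arrays lay above both WT arrays. Fructose was accompanied by a 1.29-fold lower level in WT and a 1.40-fold higher one in KO. The genotypes differed 1.17-fold in control medium and 2.10-fold in fructose medium, with KO higher in both. Among the 9 promoter windows available, none of them for Ccn2 or Tead1, only that of F3 held AP-1 motifs, where 7.81% of all windows did. Its window (chr3:121723287-121723586, plus strand) is shown because it holds AP-1 motifs (TGANTCA, in capitals) and no TEAD motif.
F3: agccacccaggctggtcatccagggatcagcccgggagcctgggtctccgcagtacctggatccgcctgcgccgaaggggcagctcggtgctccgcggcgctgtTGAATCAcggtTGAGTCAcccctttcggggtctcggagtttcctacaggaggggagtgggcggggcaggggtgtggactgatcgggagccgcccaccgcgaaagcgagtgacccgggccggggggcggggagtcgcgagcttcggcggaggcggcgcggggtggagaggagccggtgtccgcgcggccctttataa

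Crim1 encodes a transmembrane protein that binds bone morphogenetic proteins. It had log2 levels of 7.93 on WT control, 6.69 on WT fructose, 8.22 on KO control and 7.74 on KO fructose, the widest range of the 10 genes at 1.54. The WT fructose array stood apart from the other 3. Fructose was accompanied by lower levels in both genotypes, 2.37-fold in WT and 1.39-fold in KO. The genotypes were 1.23-fold apart in control medium and 2.08-fold apart in fructose medium, with KO higher. Its window (chr17:78199998-78200297, plus strand), in which 76% of bases are G or C, is shown because it holds 1 TEAD motif 79 bases before the start, in capitals.
Crim1: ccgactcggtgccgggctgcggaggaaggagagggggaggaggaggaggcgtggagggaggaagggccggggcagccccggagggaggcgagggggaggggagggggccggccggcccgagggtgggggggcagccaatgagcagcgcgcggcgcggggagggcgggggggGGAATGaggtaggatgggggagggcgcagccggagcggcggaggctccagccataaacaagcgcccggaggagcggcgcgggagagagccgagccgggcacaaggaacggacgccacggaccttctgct

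Axl encodes a receptor tyrosine kinase and went the other way between the genotypes. Its log2 level was 6.11 on WT control, 5.93 on WT fructose, 5.65 on KO control and 5.53 on KO fructose. Both KO arrays lay below both WT arrays, 1.37-fold in control medium and 1.31-fold in fructose medium, and the differences with fructose were 1.14-fold and 1.09-fold. Axl is also expressed by macrophages and endothelial cells. Of 11 Kupffer cell and macrophage markers, 9 were above background on at least 1 array, and their mean log2 level over all 11 was 6.14 on WT control, 6.05 on WT fructose, 5.71 on KO control and 5.63 on KO fructose. The mean of 11 sinusoidal endothelial markers was 5.63, 5.53, 5.33 and 5.26 in the same order. Between the genotypes, 7 of 8 detected Kupffer cell markers were lower in KO in control medium and 8 of 9 in fructose medium, where Timd4 was 2.02-fold lower, and 7 of 7 endothelial markers were lower in both media. Of all detected genes, 48.0% were higher in KO in control medium and 52.5% in fructose medium. Vsig4 and C1qc among the first and Stab2, Clec4g, Ehd3 and Tek among the second were below background on all 4 arrays. Their part in the Axl difference was not tested, and in bulk samples fewer cells of a type and less RNA per cell cannot be told apart.

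Amotl2 and Lats2 are both YAP targets and inhibitors of YAP. Amotl2, an angiomotin that binds YAP, had log2 levels of 6.63 on WT control, 6.07 on WT fructose, 6.55 on KO control and 6.37 on KO fructose. The WT fructose array was the lowest, 1.47-fold below WT control, and the KO arrays differed 1.13-fold. Lats2, a kinase that phosphorylates YAP, had 5.84 on WT control, 5.85 on WT fructose, 5.72 on KO control and 5.77 on KO fructose, a range of 0.12. Of the detected genes of the series, 94.7% had a range at least as wide.

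Ajuba encodes a LIM-domain protein that binds LATS kinases and limits their activity. Its log2 level was 9.16 on WT control, 8.34 on WT fructose, 9.27 on KO control and 8.97 on KO fructose. Both fructose arrays lay below both control arrays, by 1.76-fold in WT and 1.23-fold in KO. In fructose medium the KO level was 1.54-fold above WT. Tead1, one of the DNA-binding partners of YAP, had levels of 7.08 on WT control, 7.04 on WT fructose, 7.12 on KO control and 7.26 on KO fructose. No pair of its arrays differed by more than 1.17-fold.

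In WT, fructose was accompanied by lower levels of 8 of the 10 genes, Ccn1 and Lats2 being the exceptions, where 47.5% of all detected genes were higher. The median log2 difference was -0.39 against -0.03 over the 10814 genes detected in this comparison. Only Crim1 was at least 2-fold lower, where 3.01% of all detected genes were, and none was 2-fold higher (3.1% of all). At 1.5-fold, Crim1 and Ajuba were lower (10.8% of all) and none was higher (9.46%). At 3-fold none was lower (0.527%). The middle 95% of detected genes lay between -1.05 and 1.07, and Crim1 at -1.24 was outside it. The count at 2-fold rests on Crim1 alone.

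In KO, 6 of the 10 genes were higher with fructose and 4 lower, where 49.4% of all detected genes were higher. The median was 0.09 against -0.0041 over 10752 detected genes. None reached 2-fold in either direction, where 1.68% of all detected genes were higher and 1.18% lower. At 1.5-fold, Ankrd1 was higher (6.11% of all) and none was lower (5.75%). All 10 genes lay within the middle 95% of detected genes, -0.78 to 0.84. Ankrd1 had a log2 difference of 0.63, and 5.23% of detected genes had one as high.

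**Figure D2:**
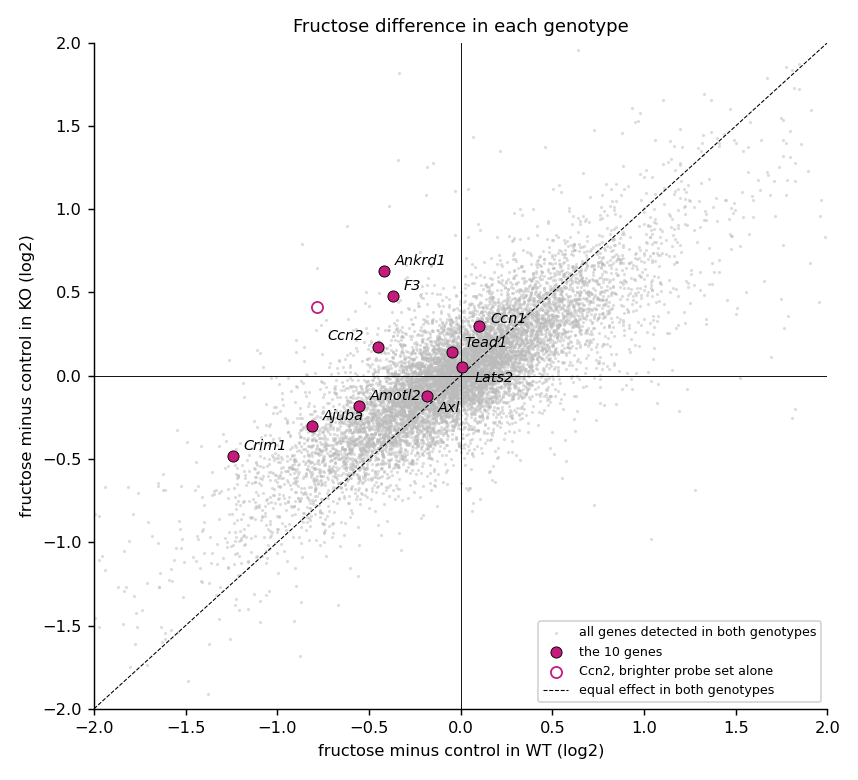
Log2 difference between fructose and control medium in WT (horizontal axis) and in KO (vertical axis) for the 10 genes (coloured points, 1 per gene), for the brighter Ccn2 probe set alone (open point) and for the 10516 genes detected in both genotypes (grey; 74 lie outside the plotted range of 2 log2 units each way). All 10 genes lie above the dashed line of equal effect (9 when quantile normalization is repeated, which moves Lats2 just below it), with Ankrd1, F3, Ccn2 and, near the origin, Tead1 in the quadrant below 0 in WT and above 0 in KO.

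The fructose differences of the genotypes, which share no array, were then set side by side. Ankrd1, Ccn2, F3 and Tead1 were lower with fructose in WT and higher in KO. Of the 10516 genes detected in both genotypes, 12.1% had this pattern of signs. Crim1, Amotl2, Axl and Ajuba were lower in both, and Ccn1 and Lats2 were higher in both. The difference in KO minus that in WT was above 0 for all 10 genes, as it was for 55.0% of the 11050 genes detected on any array. For Lats2 it was 0.04, and -0.0082 when quantile normalization was repeated, which leaves 9 of 10 above 0. It was 1.05 for Ankrd1, 0.85 for F3, 0.76 for Crim1, 0.62 for Ccn2 and 0.51 for Ajuba on the log2 scale, and at most 0.38 for the other genes. The brighter Ccn2 probe set alone gave 1.20, and the dimmer one gave 0.05.

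For this difference of effects, Ankrd1 alone was past 2-fold in the higher direction (0.443% of all detected genes) and none in the lower (0.588%). At 1.5-fold, Ankrd1, F3, Crim1 and Ccn2 were past the threshold (2.86% of all) and none in the lower direction (2.6%). None was past 3-fold (0.0543%). The median over the 10 genes was 0.44, against 0.03 over all detected genes. Ankrd1 was past 2-fold by a small margin, and a loess correction placed it at 0.998, just under.

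In control medium the genotypes were close. The median log2 difference between KO and WT was 0.07 against -0.01 over 10720 detected genes. In KO, 6 of the 10 genes were higher and 4 lower, where 48.0% of all detected genes were higher. None of the 10 was 2-fold higher (0.0373% of all) or lower (0.196%), and none reached 1.5-fold in either direction (0.476% higher and 1.1% lower of all). The middle 95% of detected genes was -0.45 to 0.36. Ankrd1, at 0.41, lay above it and Axl, at -0.46, below it.

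In fructose medium KO exceeded WT for 8 of the 10 genes, Axl and Lats2 being lower, where 52.5% of all detected genes were higher. The median was 0.46 against 0.01 over 10688 detected genes. Ankrd1, F3 and Crim1 were at least 2-fold higher, where 0.543% of all detected genes were, and none was 2-fold lower (0.739%). At 1.5-fold, Ccn2 and Ajuba joined them (2.45% of all), and none was lower (2.86%). The Ccn2 value is the mean of 2 probe sets, 1 of them below background. Its brighter probe set alone was 2.81-fold higher in KO, which made 4 genes past 2-fold. None reached 3-fold (0.0749%). Differences as high as that of Ankrd1 were seen in 0.0936% of detected genes, of F3 in 0.393%, of Crim1 in 0.449% and of Ccn2 in 0.749%. The group was proposed with this comparison in view, so these shares describe the genes and test nothing. This comparison also shares the WT fructose array with the fructose difference in WT, so a low level there enters both.

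**Figure D3:**
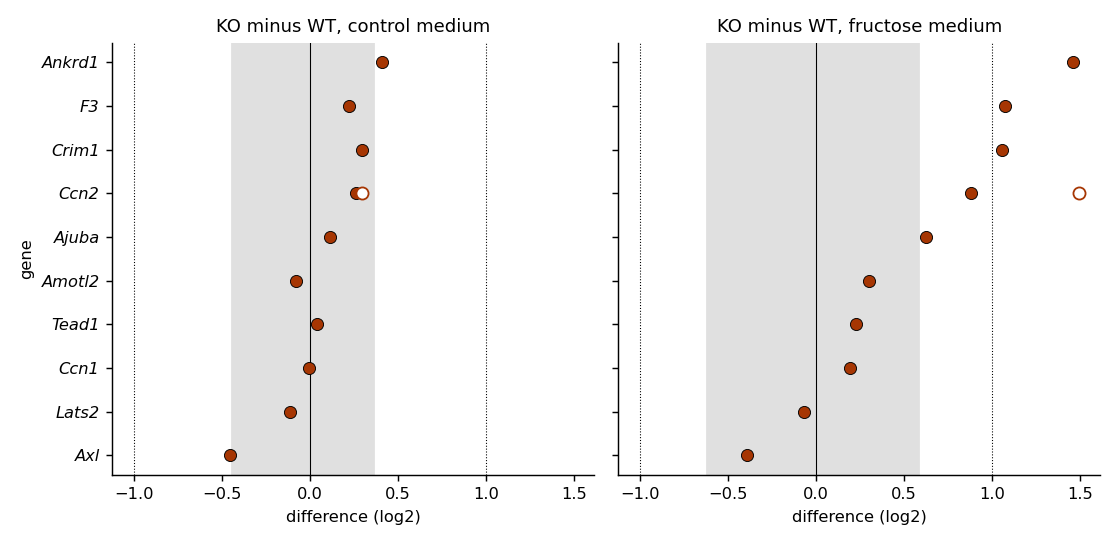
Log2 difference between KO and WT (horizontal axis) in control medium (left) and in fructose medium (right) for each gene (vertical axis); filled points are the reported values, open points the brighter Ccn2 probe set alone, the grey band holds the middle 95% of detected genes, and dotted lines mark 2-fold. In fructose medium the filled points of Ankrd1, F3 and Crim1 and the open Ccn2 point lie past 2-fold. The filled points of Ccn2 and Ajuba lie past the grey band there, while in control medium all 10 lie between -0.46 and 0.41.

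Promoter windows were available from RefSeq for 8 of the 10 genes, all but Ccn2 and Tead1, with 9 windows because Lats2 has 2 annotated starts. The TEAD motif, GGAATG or CATTCC on the other strand, was in 7 of these 9 windows, against 14.7% of the 32851 windows of 300 bases in the table. Ankrd1 held it 210 and 123 bases before the start and Ajuba 186 and 164 bases before it. Ccn1, Crim1, Amotl2 and Axl each held it once upstream, 103, 79, 65 and 233 bases before the start, and Lats2 once, just after 1 of its starts. The AP-1 motif, TGANTCA, reads the same on both strands and was in the F3 window alone, 146 and 135 bases before the start, against 7.81% of all windows. The CArG box, the site of serum response factor (SRF), was in none of them, against 1.63% of all windows. Genes with the TEAD motif included both Crim1, with the widest range over the arrays, and Lats2, with the narrowest. The group was proposed from differences between these arrays and named for YAP, which acts through TEAD, so the motif count is a description. A match does not show that a factor was bound.

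**Figure D4:**
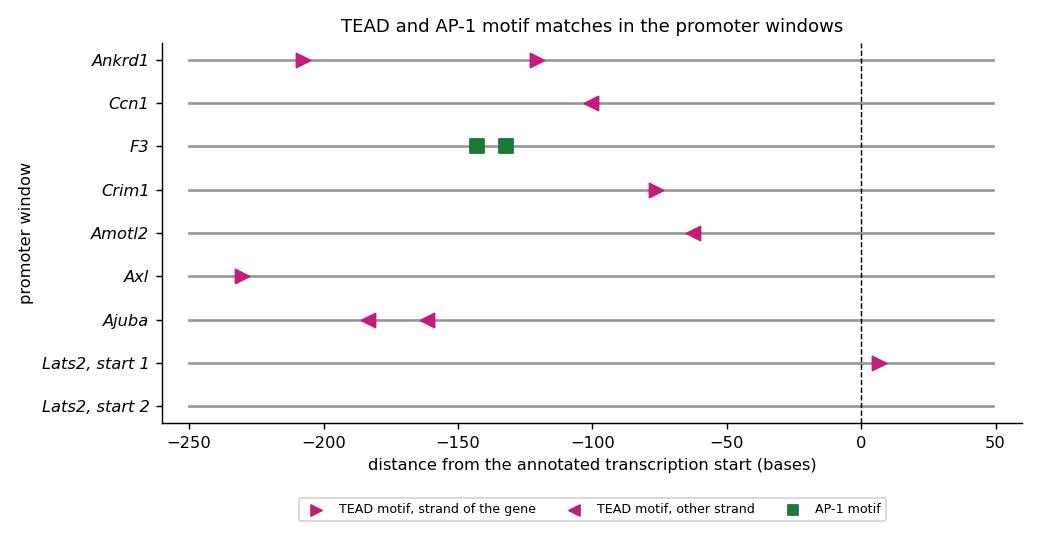
Positions of TEAD motif matches (triangles, pointing with or against the direction of the gene) and AP-1 motif matches (squares) in the promoter windows of 8 genes (1 row per window), by distance in bases from the annotated transcription start (dashed line). Ankrd1 and Ajuba hold 2 TEAD matches each, F3 holds 2 AP-1 matches and no TEAD match, and the Lats2 window of its other start holds neither.

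Other genes of the Hippo cascade were listed as well. Of 24 kinases, scaffolds and upstream regulators listed, 21 were measured, and 19 of these were above background on at least 1 array. In WT, 18 were detected on the arrays compared, and 1 was at least 2-fold higher with fructose: Mob1b, which encodes an activator of LATS kinases, at 2.08-fold. None was 2-fold lower, and the median was -0.12. Of all detected genes, 3.1% were 2-fold higher and 3.01% lower in WT. Frmd6, a FERM-domain regulator of the pathway, was 1.94-fold and Sav1, the scaffold of the MST kinases, 1.56-fold higher. Wwc1 (KIBRA), a scaffold upstream of LATS, was 1.93-fold lower in WT and 2.16-fold lower in KO, the only one of 18 past 2-fold in KO. Of all detected genes, 1.68% were 2-fold higher and 1.18% lower in KO. Stk38l, a kinase related to LATS, was 1.89-fold lower in WT. Between the genotypes none of the 17 detected in control medium or the 19 in fructose medium was past 1.5-fold. Of all detected genes, 0.476% were higher and 1.1% lower by that much in control medium and 2.45% and 2.86% in fructose medium, so a count of 0 is a description and marks nothing particular to this list. Its median in fructose medium was 0.02.

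Yap1 itself had log2 levels of 5.58 on WT control, 5.50 on WT fructose, 5.54 on KO control and 5.53 on KO fructose, a range of 0.08. Wwtr1, which encodes TAZ, had 7.26, 8.003, 7.18 and 7.58 in the same order. It was thus 1.67-fold higher with fructose in WT and 1.32-fold in KO, and 1.34-fold lower in KO than in WT in fructose medium. Its direction between the genotypes was opposite to that of Ankrd1, F3 and Crim1. Tead3, Tead4 and Vgll4 were above background on all 4 arrays, with ranges of at most 0.38, and Tead2, Vgll1, Vgll2 and Vgll3 were below it on all 4. None of the 5 detected effectors and cofactors was past 2-fold in any comparison, where at most 3.1% of all detected genes were in either direction, so the count says nothing particular about them.

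Other known YAP targets were mixed. Of 26 listed, 23 were measured and 15 were above background on at least 1 array. Ptpn14 is in this list and in that of the Hippo cascade. In fructose medium 10 of 13 detected were higher in KO and 3 lower, with a median of 0.10, where 52.5% of all detected genes were higher. Of all detected genes, 0.543% were at least 2-fold higher in KO there and 0.739% lower. Of the 13, 1 was past 2-fold. That was Thbs1, the gene of the matricellular protein thrombospondin 1, at 2.17-fold, with log2 levels of 6.84 on WT control, 6.93 on WT fructose, 7.14 on KO control and 8.06 on KO fructose. Flna, which encodes the actin crosslinker filamin A, was 1.82-fold higher in KO there. With fructose in WT, Nuak2, an AMPK-related kinase gene, was at least 2.16-fold lower and Myof (myoferlin) at least 1.79-fold lower, each against the background level because the fructose array lay below it. For Nuak2 the difference of effects was 1.003 on the log2 scale, from levels below background on both fructose arrays. Nt5e, which encodes the ecto-enzyme CD73, was 1.88-fold lower with fructose in WT and 2.78-fold lower in KO. Of all detected genes, 3.01% were at least 2-fold lower with fructose in WT and 1.18% in KO. Myc was 1.58-fold and 1.45-fold higher. The list's median was -0.01 in WT and 0.05 in KO.

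The closest relatives of the 10 genes were listed too. Many of them were already counted above: Amot, Amotl1, Limd1, Wtip and Lats1 with the Hippo cascade, and Tead2, Tead3 and Tead4 with the effectors and cofactors. Of 11 relatives detected in fructose medium, 5 were higher and 6 lower in KO, with a median of -0.03, where 52.5% of all detected genes were higher. The difference of effects was above 0 for 7 and below 0 for 4, with a median of 0.16, where 55.0% of all were above 0. Ankrd23 belongs with Ankrd1 and Ankrd2 to the muscle ankyrin repeat protein family. Its log2 level was 8.66 on WT control, 5.39 on WT fructose, 9.10 on KO control and 6.63 on KO fructose. It was 9.63-fold lower with fructose in WT and 5.54-fold lower in KO, whereas Ankrd1 was lower in WT alone. In fructose medium Ankrd23 was 2.36-fold higher in KO. Ankrd2 was above background on the KO fructose array alone, at 5.25, which is at least 1.40-fold above KO control. Of 16 relatives measured, 11 were above background on at least 1 array, and Lats1, Limd1, Wtip and Tead4 differed by at most 1.25-fold between the genotypes within a medium and between the media within a genotype. Ccn3, Ccn4 and Ccn6 were below background on all 4 arrays.

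Genes of the actin cytoskeleton and of SRF and its cofactors (MRTFs), which are known to share targets with YAP, were listed too. Flna is in this list and in that of the other YAP targets. In fructose medium 12 of 13 detected were higher in KO, with a median of 0.25, where 52.5% of all detected genes were higher. In control medium 12 of 14 were higher, with a median of 0.19, where 48.0% of all were. The gene past 2-fold in fructose medium by the measured values was Tpm2, a tropomyosin, where 0.543% of all detected genes were 2-fold higher. Tpm2 had log2 levels of 6.19 on WT control, 4.19 on WT fructose, 6.92 on KO control and 5.47 on KO fructose. Its WT fructose array lay below background, which limits the genotype difference there to at least 1.63-fold. With fructose, 10 of 14 detected were lower in WT, with a median of -0.27, and 8 of 14 in KO, with a median of -0.08. Of all detected genes, 47.5% were higher with fructose in WT and 49.4% in KO. Tpm2 and Cnn2, a calponin, were the genes past 2-fold. In WT they were at least 2.68-fold and at least 2.45-fold lower, and in KO 2.74-fold and 2.35-fold lower. Of all detected genes, 3.01% were 2-fold lower in WT and 1.18% in KO. Tagln was below background on all 4 arrays, and Acta2 had a range of 0.28 log2 units over the arrays, Srf of 0.37 and Zyx of 0.19.

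**Figure D5:**
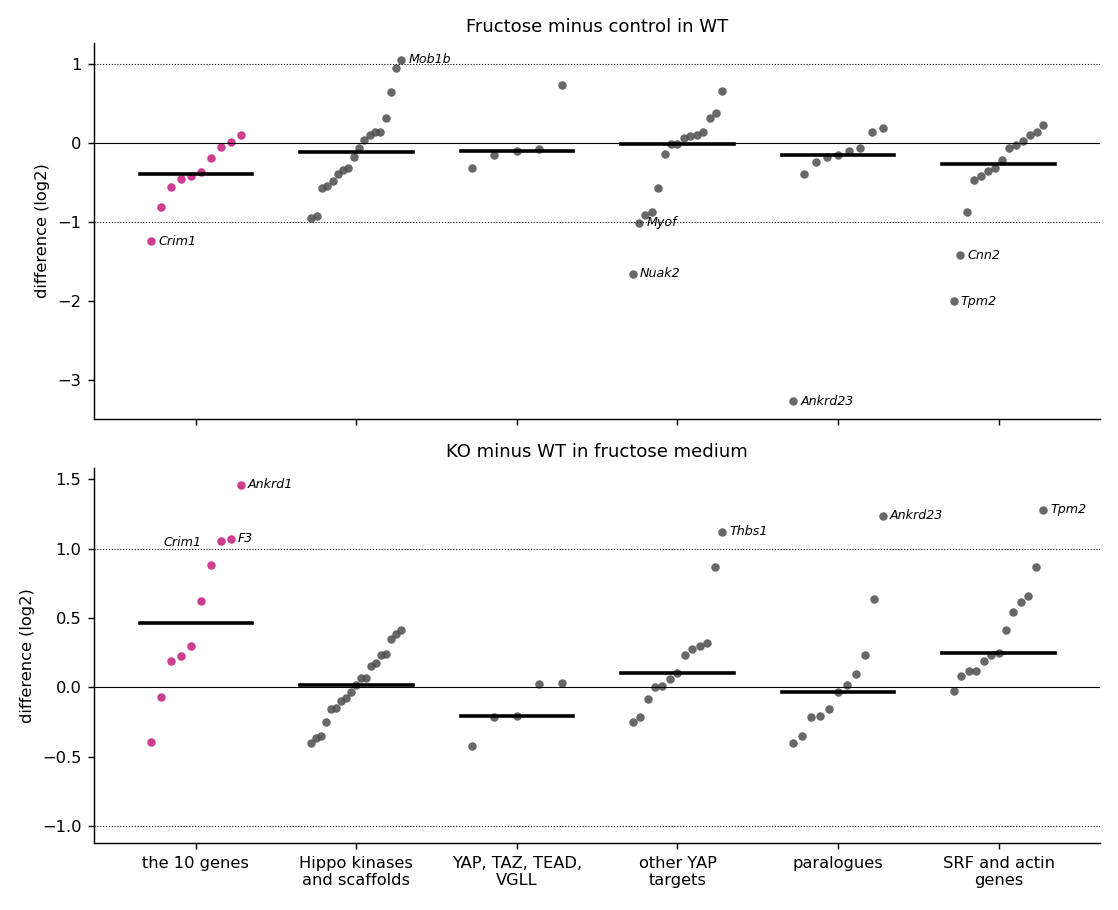
Log2 difference (vertical axis) of each detected gene (1 point per gene) in the 10 genes and in 5 other gene lists (horizontal axis), for fructose against control in WT (top) and KO against WT in fructose medium (bottom), each on its measured value; bars are medians, dotted lines mark 2-fold and genes past it are named. In fructose medium the bar of the 10 genes is at 0.46 and those of the other lists lie between -0.20 and 0.25. The lists overlap, and a gene in more than 1 of them is drawn in each.

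Markers of other liver cells, some of which express YAP targets strongly, were examined as well. Of 11 stellate cell and fibroblast markers, 7 were below background on all 4 arrays, among them Lrat, Des, Pdgfrb and Col1a2, and the mean of the list was 4.33 on WT control, 4.37 on WT fructose, 4.35 on KO control and 4.41 on KO fructose. Of 7 measured cholangiocyte markers, Krt7, Krt19, Epcam, Cftr and Muc1 were below background on all 4. The other 2 were Sox9, with levels from 9.39 to 10.30, and Cldn4, which encodes a tight junction claudin, with 9.82 on WT control, 8.95 on WT fructose, 10.12 on KO control and 10.92 on KO fructose. Cldn4 had the array order of Ankrd1, F3 and Ccn2 and was 3.91-fold higher in KO than in WT in fructose medium. Hepatocyte markers had a median difference of 0.05 between the genotypes in that medium. With fructose, Tat, a tyrosine-degrading enzyme gene, was 4.65-fold higher in WT and 4.02-fold in KO, and Cps1, of the urea cycle, 2.65-fold and 2.63-fold. Hnf4a, of the same list, was 1.68-fold lower in WT and 1.42-fold lower in KO. Of the 11 hepatocyte markers, 7 were higher and 4 lower with fructose in WT, with a median of 0.02. In KO, 9 were higher and 2 lower, with a median of 0.08. Of all detected genes, 47.5% were higher with fructose in WT and 49.4% in KO. The part of these cells in the levels of the 10 genes was not tested.

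For Crim1, Ankrd1 and F3, which had the widest ranges, the 5 genes with the most similar profile were found by the Euclidean distance between levels over the 4 arrays, each gene first centred on its own mean. Only detected genes with at least 50% of the range were compared. Nearest to Crim1 among 1846 genes were Gsta4, a glutathione transferase gene, at a distance of 0.06, Dhrs1 at 0.12, Ptprk, a receptor tyrosine phosphatase gene, at 0.13, and Gm10639 at 0.15. Nearest to Ankrd1 among 2086 genes were Mapk4 at 0.16, Gprc5a at 0.30, F3 at 0.31, Ivl, the gene of involucrin, at 0.32, and n-R5s136 at 0.33. Nearest to F3 among 3764 genes were 2610035D17Rik at 0.12, n-R5s136 at 0.15, Tgm1, a transglutaminase gene, at 0.17, Ttc26 at 0.17 and Olfr1417 at 0.18. Olfr1417 was among the olfactory receptor genes that set the background level and, like Ttc26 and 2610035D17Rik, had at least 1 array below it. The distances are a description.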

How the data were processed

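Total RNA, 400 ng per sample, was labelled and hybridised to 1-colour whole-transcript arrays. The authors deposited log2 expression values per probe set, made with RMA and R 3.4.0 per the submitters' processing notes. RMA makes the arrays' distributions alike, so a shift shared by all genes cannot be seen. The genome build was not given in the sources used here.

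Of 41345 probe sets, 23521 had 1 symbol in the platform table. Their names were updated by Entrez number through a RefSeq table of GRCm38.p6, which matched 23328. Probe sets of a gene were averaged in log2, and probe sets with several symbols (1814) or none were left out. No probe set with several symbols held any of the 10 genes. A gene was detected in a comparison when above background on at least 1 of its arrays. With 1 array per group, differences of log2 values were taken with no test, and a gene was called at 2-fold. A fold was bounded by the background level where the dimmer array lay below it. With so few arrays, precision is limited.

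The 10 genes and the 10 gene lists were chosen with earlier results of these data known. The genes named are the 10, Mlxipl, list members past 2-fold or with the largest differences, and the 5 nearest profiles of the 3 genes with the widest range, of which 1 is not reported here; other list members were named after their values were seen. Listed genes without a single-symbol probe set were not analysed here. The counting was run on simulated arrays without noise, with 3-fold differences put into genes well above background. That checks the code alone and not the precision of the values. Python 3.11.15, pandas 2.3.3 and statsmodels 0.14.6 were used. Alternatives were median centring, repeated quantile normalization, loess (span 0.3), the brightest probe set, values raised to the background, thresholds of 1.5-fold and 3-fold, no filter on dim genes, a filter 1 log2 unit higher, and the mean for the median.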

Additional observations from a re-analysis of the deposited data

Results flagged for a closer look

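Fructose differences of opposite direction in the 2 genotypes, at least 1.5-fold apart, were seen for Ankrd1, Ccn2 and F3. The level was lower with fructose in WT and higher in KO, by a difference of effects of 1.05 for Ankrd1, 0.62 for Ccn2 and 0.85 for F3 on the log2 scale. The Ccn2 value averages a probe set below background on all 4 arrays, whose own value was 0.05, with the brighter one, whose value was 1.20. Each rests on 1 array per group, and the difference between the genotypes was not tested. Of the genes detected in both genotypes, 12.1% were lower with fructose in WT and higher in KO. Of all detected genes, 2.86% had a difference of effects at least 1.5-fold in the higher direction. The share of genes with both was not counted, so the 3 genes are a description.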

How the results depend on the processing

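The medians over the 10 genes moved by at most 0.1 under every alternative run. They ranged from -0.41 to -0.37 for fructose in WT, 0.07 to 0.14 in KO, 0.07 to 0.08 for KO against WT in control medium, 0.44 to 0.53 in fructose medium and 0.41 to 0.47 for the difference of effects. Raising values to the background and dropping the filter on dim genes could change nothing, since all 10 genes lay above background on all 4 arrays. The brightest probe set could change Ccn2 alone, since the other genes had 1 probe set each. The 250 single-gene values recomputed thus include 50 with values raised to the background that were fixed, and are no measure of stability as a whole. Of the 250, 4 changed sign, all below 0.05 in size (Ccn1 between the genotypes in control medium under 3 scalings, and the difference of effects of Lats2 under repeated quantile normalization), and 4 moved by over 0.1, all of them Ccn2 with its brighter probe set. That choice raised the genes past 2-fold for the difference of effects from 1 to 2, and a loess correction lowered them to 0. The brighter probe set also raised the genes 2-fold higher in KO than in WT in fructose medium from 3 to 4. Other counts at 2-fold stayed within 1.5 times under every scaling and filter. At 1.5-fold, 2 genes were lower with fructose in WT, 1 was higher in KO, 5 were higher in KO than in WT in fructose medium and 4 were past it for the difference of effects. At 3-fold these counts were 0 in each comparison. No scaling moved the median of all genes by over 0.1. No array could be left out, since each group has 1, and probe sets with several symbols changed nothing because none held a gene of the group.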
